A study of Mus musculus with 6 samples.

Results

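The 44 genes described here encode nuclear subunits of respiratory complex III, complex IV and ATP synthase in the mouse. They are Cyc1 and every gene of the RefSeq mouse table, pseudogenes left out, whose symbol starts with Uqcr, Cox4, Cox5, Cox6, Cox7, Cox8 or Atp5. The array measured 32451 genes or unnamed transcripts in all, and 65 of its probes belong to these 44 genes. Complex III accounts for 9 of the genes, complex IV for 18 and ATP synthase for 17. The 18 include Cox7a2l, whose product joins complex III to complex IV. The cells were BV2, immortalized murine cells of microglial origin, microglia being the brain's own macrophages. They had received recombinant mouse IL-4 at 10 ng/ml for 24 hr (3 samples) or PBS for 24 hr (3 samples), on plates coated with poly-L-lysine, with 1 single-colour Agilent array for each sample. IL-4 is a cytokine that drives alternative, or M2, activation of macrophages, and M2 polarization is the subject named in the study's title.

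Complex III passes electrons from ubiquinol to cytochrome c and pumps protons out of the mitochondrial matrix. Complex IV hands these electrons to oxygen and pumps further protons, and ATP synthase lets the protons flow back through its membrane rotor (Fo) to drive ATP synthesis in its soluble head (F1). Each complex joins a few catalytic subunits to many small supernumerary ones, and several complex IV subunits exist as isoforms used in particular tissues. In macrophages, alternative activation is known for its reliance on mitochondrial respiration.

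Values are log2 processed signals minus the 75th percentile of the array, called scaled log2 signal below, and a log2 fold change is the mean of the IL-4 arrays minus the mean of the PBS arrays. Per-gene tests are from limma, with p-values adjusted by the Benjamini-Hochberg method over all 29752 genes tested, and a gene was called at an adjusted p under 0.05. Between 87.9% and 98.0% of probes were well above background on each array, and the 75th percentile of the processed signal was 674.0 to 876.2. All 11 microglial and macrophage markers with a matched probe were well above background on all 6 arrays. Most probes of each array met that rule, so it does not by itself mark a cell type. Whether replicates were separate cultures is not given in the labels, and p-values therefore cover only the spread among these samples, possibly a technical one. Slide 1 carried all 3 IL-4 arrays and PBS replicate 1, and slide 2 carried PBS replicates 2 and 3. The difference within slide 1, the IL-4 mean minus PBS replicate 1, is therefore given beside the pooled values. Slide 1 holds a single PBS array, so a difference between slides and a deviation of that sample cannot be told apart. With RNA from whole cultures, fewer cells expressing a gene and less RNA per cell cannot be told apart.

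Of the 44 genes, 43 were tested. The exception was Cox7b2, whose probe was well above background on 1 of 3 IL-4 arrays and 1 of 3 PBS arrays. Uqcrb, a small subunit of complex III, and Atp5j2, subunit f of the ATP synthase membrane part, fell with IL-4, and no gene of the 43 rose at the adjusted threshold. The 2 falls stand beside 2.54% of all tested genes called lower, and the 0 rises beside 0.807% called higher. At an unadjusted limma p under 0.05, 14 of the 43 were lower and 3 were higher in IL-4 samples, against 17.5% and 16.6% of all tested genes. All 3 IL-4 arrays lay below all 3 PBS arrays for 15 of the 43 genes (34.9%), against 19.8% of all tested genes. All 3 IL-4 arrays lay above all 3 PBS arrays for 3 of the 43 (6.98%), against 18.7%.

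The shift of the 43 genes was small over all arrays and near 0 against PBS replicate 1. Their median log2 fold change was -0.21, against -0.05 over all tested genes, and 32 of the 43 (74.4%) were below 0, against 56.5%. Within slide 1 the median was -0.02, against 0.01 over all tested genes, and 22 of the 43 (51.2%) were below 0, against 48.7%. PBS replicate 1 lay below both other PBS arrays for 28 of the 43 genes (65.1%), against 50.3% of all tested genes, and differed from them by a median of -0.17, against -0.08. On single arrays the median deviation of the 43 genes from their 6-array means was -0.04, -0.16 and -0.09 in IL-4 replicates 1, 2 and 3, against -0.04, 0.20 and 0.15 in PBS replicates 1, 2 and 3. PBS replicate 1 thus sat among the IL-4 arrays and apart from both PBS arrays of the other slide. With slide as a block, none of the 43 genes was called in either direction by limma, beside 0.0101% of all tested genes called lower and 0.0202% called higher. At an unadjusted p under 0.05 that fit gave 5 of the 43 lower and 1 higher, against 5.82% and 4.39% of all tested genes.

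Within slide 1, all 3 IL-4 arrays lay below PBS replicate 1 for 17 of the 43 genes (39.5%), against 25.5% of all tested genes, and above it for 7 (16.3%), against 30.5%. By complex, the median log2 fold change was -0.34 for complex III, -0.14 for complex IV and -0.17 for ATP synthase, and within slide 1 it was -0.12, 0.01 and 0.01 in the same order.

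**Figure D1:**
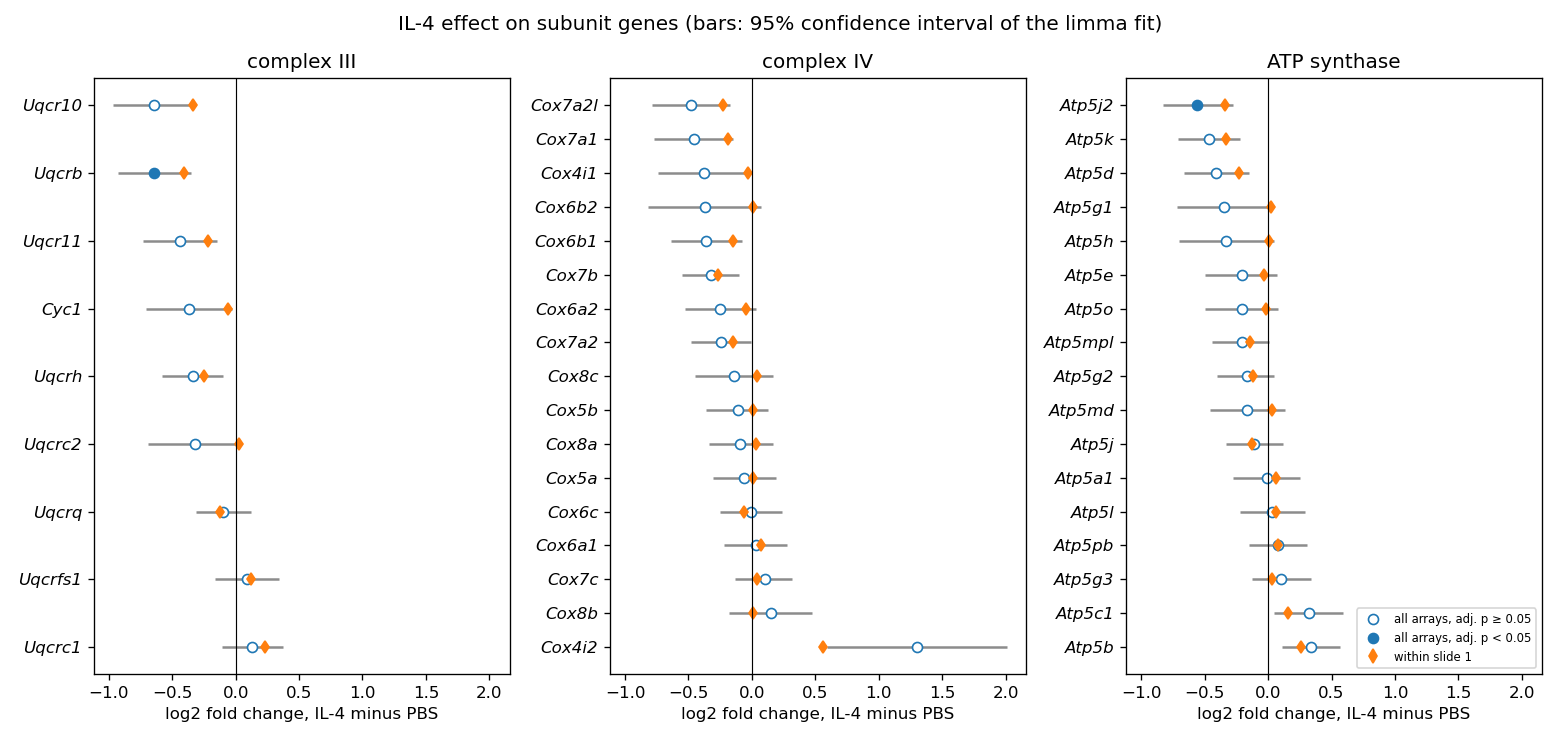
Log2 fold change of each tested subunit gene, IL-4 minus PBS, in one panel per complex. Circles are the limma estimate over all 6 arrays with its 95% confidence interval (filled where the adjusted p was under 0.05), and diamonds are the IL-4 mean minus PBS replicate 1 on slide 1. Uqcrb and Atp5j2 are the 2 filled circles, and Cox4i2 lies farthest to the right at 1.30.

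Promoter sequence was read from RefSeq windows on GRCm38.p6 that run from 250 bases before a gene's start to 50 bases after it. Of the 44 genes 33 had a window, and these genes had 36 windows in all. No window was used for Cyc1, Uqcrc2, Uqcrb, Uqcrq, Cox4i1, Cox4i2, Cox6a2, Cox6c, Cox8c, Atp5a1 and Atp5mpl. The windows printed are those of Uqcr10 and Atp5j2, the 2 genes with the lowest log2 fold change among those with a window, and of Atp5b, the gene with the highest. Atp5k and Uqcrc1 are added because both windows hold the same binding sequence of NRF1, a transcription factor of respiratory genes. Of the 6 genes that hold it, they had the lowest and the highest log2 fold change, at -0.47 and 0.13. Capitals mark matches, on either strand, to the motifs searched: GCGCATGC (NRF1), CCGGAAG (GABPA), AAGATGGC (YY1), GGGCGG (SP1), CCAAT (the CCAAT box), TCAAGGTCA (ESRRA) and that of STAT6, which IL-4 signalling activates (TTC and GAA with any 4 bases between them). The windows lie at chr11:4704295-4704594 on the minus strand for Uqcr10, chr5:145191492-145191791 on the minus strand for Atp5j2, chr10:128083057-128083356 on the plus strand for Atp5b, chr5:108434350-108434649 on the minus strand for Atp5k and chr9:108936398-108936697 on the plus strand for Uqcrc1.
Uqcr10: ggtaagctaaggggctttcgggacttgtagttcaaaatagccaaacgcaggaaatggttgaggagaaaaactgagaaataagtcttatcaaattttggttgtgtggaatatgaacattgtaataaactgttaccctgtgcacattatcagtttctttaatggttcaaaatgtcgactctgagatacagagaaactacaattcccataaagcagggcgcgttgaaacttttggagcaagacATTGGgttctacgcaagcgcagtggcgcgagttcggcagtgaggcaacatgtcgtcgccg
Atp5j2: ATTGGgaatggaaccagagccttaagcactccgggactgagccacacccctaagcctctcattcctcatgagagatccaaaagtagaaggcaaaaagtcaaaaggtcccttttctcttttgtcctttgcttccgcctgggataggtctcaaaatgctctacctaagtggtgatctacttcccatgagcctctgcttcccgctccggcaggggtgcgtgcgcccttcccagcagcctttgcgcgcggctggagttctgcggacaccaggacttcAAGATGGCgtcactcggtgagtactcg
Atp5b: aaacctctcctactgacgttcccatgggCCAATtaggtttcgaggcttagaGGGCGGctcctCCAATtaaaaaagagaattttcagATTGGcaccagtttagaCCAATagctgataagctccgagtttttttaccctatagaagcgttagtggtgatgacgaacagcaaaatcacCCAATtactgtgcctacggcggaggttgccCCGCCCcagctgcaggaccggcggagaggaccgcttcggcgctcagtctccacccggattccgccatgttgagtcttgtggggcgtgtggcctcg
Atp5k: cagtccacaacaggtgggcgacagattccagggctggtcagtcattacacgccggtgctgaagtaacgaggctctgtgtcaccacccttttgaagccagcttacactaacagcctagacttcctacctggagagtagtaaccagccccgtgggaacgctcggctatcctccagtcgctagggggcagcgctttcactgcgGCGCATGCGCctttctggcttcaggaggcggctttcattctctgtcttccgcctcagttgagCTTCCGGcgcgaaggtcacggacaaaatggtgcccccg
Uqcrc1: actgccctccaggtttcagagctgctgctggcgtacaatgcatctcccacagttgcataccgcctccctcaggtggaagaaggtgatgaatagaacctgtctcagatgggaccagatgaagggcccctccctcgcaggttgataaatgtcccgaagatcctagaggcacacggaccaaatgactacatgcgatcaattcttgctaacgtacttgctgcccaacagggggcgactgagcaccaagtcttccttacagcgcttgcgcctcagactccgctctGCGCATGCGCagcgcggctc

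The motif lists of these genes differed. The Uqcr10 window holds only a CCAAT box, and the Atp5j2 window holds a YY1 match and a CCAAT box. The Atp5b window holds 5 CCAAT boxes and 2 SP1 matches. The Atp5k window holds 2 NRF1 matches, which overlap on opposite strands, and 1 GABPA match, and the Uqcrc1 window holds 2 overlapping NRF1 matches alone. Over the 36 windows, the NRF1 sequence was present in 16.7%, against 2.71% of all 32851 windows of the table. It occurred in Atp5g2, Atp5k, Atp5l, Cox6a1, Uqcr11 and Uqcrc1, whose median log2 fold change was -0.07, while the 26 tested genes with a window and no match had a median of -0.21. The GABPA sequence was present in 30.6% of the windows, against 8.86% of all windows, and the 11 genes that hold it had a median log2 fold change of -0.21, against -0.17 for the 21 without it. The YY1 sequence was present in 8.33% (Atp5j, Atp5j2 and Atp5pb), against 2.75%, and the ESRRA sequence in 2.78% (Atp5g3), against 0.423%. CCAAT boxes stood in 52.8% of the windows, against 37.4%, and SP1 matches in 33.3%, against 35.7%. The 17 tested genes with a CCAAT box had a median log2 fold change of -0.32, against -0.11 for the 15 without one, while the 11 with an SP1 match had -0.17, against -0.32 for the 21 without one. The 3 genes with a YY1 match had a median of -0.11, against -0.21 for the 29 without one. Within slide 1 the medians with and without a motif were 0.01 and -0.02 for the CCAAT box, 0.01 and 0.01 for SP1, -0.13 and 0.01 for YY1, -0.03 and 0.01 for NRF1, and -0.03 and 0.01 for GABPA. These medians are descriptions with no test. The STAT6 sequence was present in 5.56% (Cox6b1 and Uqcrfs1), against 6.95% of all windows. These 2 genes had a median log2 fold change of -0.14, against -0.19 for the 30 without it, also with no test. Within slide 1 the medians were -0.02 and 0.01.

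In complex III, the core subunits and the small supernumerary subunits gave different counts. All 5 supernumerary subunits had every IL-4 array below every PBS array, PBS replicate 1 included. Of all tested genes, 19.8% did so, and 25.5% had every IL-4 array below PBS replicate 1. The 5 subunits had a median log2 fold change of -0.44 over all arrays and -0.25 within slide 1. Of the 4 core subunits, 0 had separated groups, beside 19.8% of all tested genes separated lower and 18.7% higher. The median of the core subunits was -0.12 over all arrays and 0.07 within slide 1. The difference between these 2 sets of genes was not tested.

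Cyc1 encodes cytochrome c1, which passes electrons to cytochrome c. Its scaled log2 signal was 1.44, 1.30 and 1.36 in IL-4 samples, against 1.42, 1.85 and 1.94 in PBS samples. PBS replicate 1 lay inside the IL-4 range, and the difference of -0.37 ± 0.15 over all arrays (SE, with an adjusted p of 0.124 in limma) was -0.06 within slide 1. Uqcrfs1, the Rieske iron-sulfur protein that takes the electron from ubiquinol, read 5.58, 5.37 and 5.45 in IL-4 samples, against 5.34, 5.48 and 5.30 in PBS samples. The groups overlapped, with a log2 fold change of 0.09 (95% confidence interval -0.16 to 0.34) and 0.12 within slide 1. Uqcrc1, a core protein of the matrix arm, read 2.07, 1.92 and 2.02 in IL-4 samples, against 1.77, 1.95 and 1.90 in PBS samples. It overlapped too, at 0.13 (95% confidence interval -0.11 to 0.37), and was 0.23 higher than PBS replicate 1 within slide 1. Its partner core protein Uqcrc2 read 2.25, 2.14 and 2.31 in IL-4 samples, against 2.21, 2.76 and 2.70 in PBS samples. It overlapped as well, with a log2 fold change of -0.32 that was 0.03 within slide 1.

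Uqcrb encodes a small matrix-side subunit that is needed for a stable complex III. Its scaled log2 signal was 3.00, 3.09 and 3.13 in IL-4 samples, against 3.48, 3.85 and 3.79 in PBS samples. All IL-4 arrays were below all PBS arrays, and PBS replicate 1 was the lowest of its group. The mean was 3.07 ± 0.07 in IL-4 samples and 3.71 ± 0.20 in PBS samples (SD, n = 3 each), a 1.55-fold lower signal (log2 fold change -0.64 ± 0.13 SE, adjusted p = 0.0443, limma). Within slide 1 the difference was -0.41, with an adjusted p of 0.30 when limma had slide as a block. Both other Uqcrb probes were lower too, at -0.46 and -0.34.

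Uqcr10, a small subunit at the membrane next to cytochrome c1, showed a change of the same size. It read 2.44, 2.45 and 2.58 in IL-4 samples, against 2.83, 3.31 and 3.25 in PBS samples. The groups did not overlap, and the value of -0.64 ± 0.14 (SE) just missed the threshold, with an adjusted p of 0.0517 in limma, with -0.34 within slide 1. The probes of Uqcr10 disagreed, since the second gave -0.54 and the third -0.04. Uqcr11, a small transmembrane subunit, had a log2 fold change of -0.44 and -0.22 within slide 1. Uqcrh, the hinge protein that binds near cytochrome c1, had -0.34 and -0.25 within slide 1, and its second probe gave -0.40. Uqcrq, the ubiquinone-binding protein, had the smallest difference of the 5, at -0.10 over all arrays and -0.12 within slide 1.

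**Figure D2:**
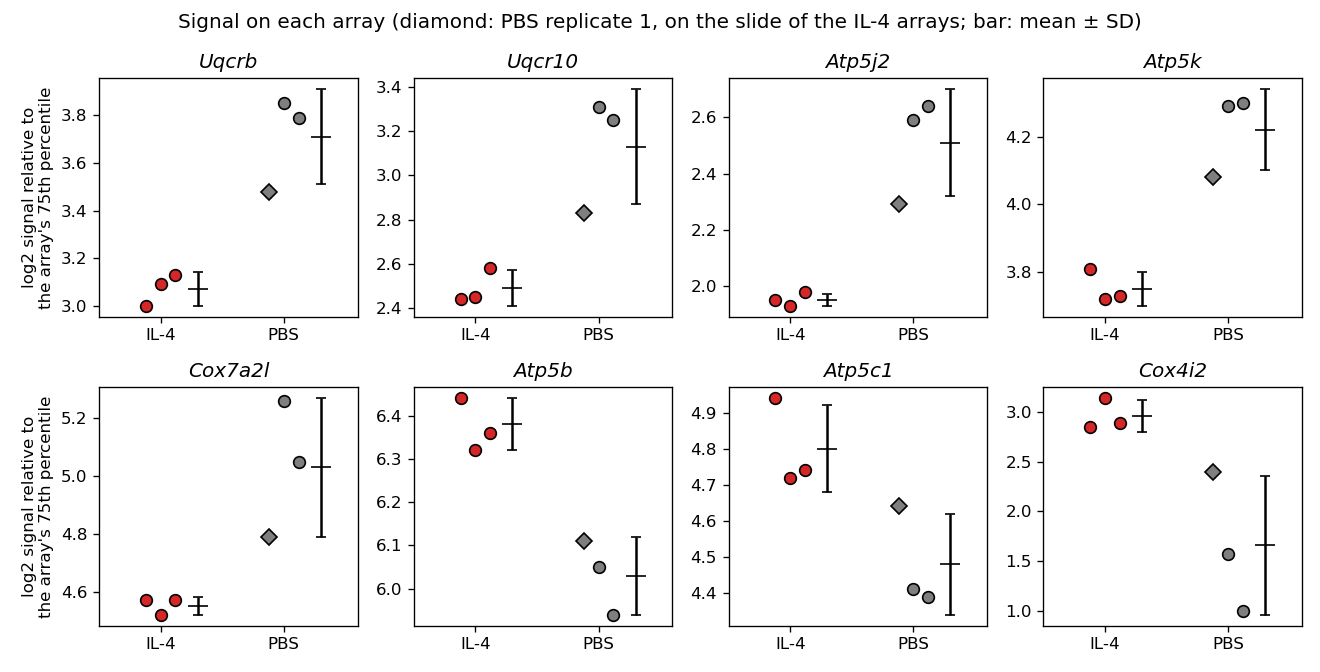
Scaled log2 signal of 8 subunit genes on each array, IL-4 on the left and PBS on the right of each panel. Points are single arrays, the diamond is PBS replicate 1, which lay on the slide of the IL-4 arrays, and bars are mean ± SD. Each axis has its own range and does not start at 0. Uqcrb, Uqcr10, Atp5j2, Atp5k and Cox7a2l are lower on every IL-4 array than on every PBS array, Atp5b, Atp5c1 and Cox4i2 are higher, and in all 8 panels PBS replicate 1 is the PBS array nearest to the IL-4 arrays.

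In complex IV, none of the 17 tested genes was called, with 6 lower (35.3%) and 1 higher (5.88%) at an unadjusted limma p under 0.05, against 17.5% and 16.6% of all tested genes. The 11 genes counted as ubiquitous subunits include Cox7a2l, whose product joins complex III to complex IV. Of these 11 genes, 4 had every IL-4 array below every PBS array (36.4%, against 19.8% of all tested genes). Every IL-4 array lay below PBS replicate 1 for 5 of the 11 (45.5%, against 25.5%). The median log2 fold change of the 11 was -0.11 over all arrays and -0.03 within slide 1. Cox4i1 encodes the widely expressed isoform of subunit 4, which binds ATP and regulates the enzyme. It read 3.82, 3.70 and 3.76 in IL-4 samples, against 3.79, 4.35 and 4.27 in PBS samples. PBS replicate 1 lay inside the IL-4 range, so that the log2 fold change of -0.38 over all arrays was -0.03 within slide 1. Cox5a, a matrix subunit, read 5.26, 5.08 and 5.17 in IL-4 samples, against 5.16, 5.36 and 5.17 in PBS samples. Cox5b, a zinc-binding matrix subunit, read 5.11, 4.96 and 5.00 in IL-4 samples, against 5.01, 5.17 and 5.23 in PBS samples. Both overlapped between groups, with log2 fold changes of -0.06 for Cox5a (95% confidence interval -0.31 to 0.19) and -0.11 for Cox5b (95% confidence interval -0.36 to 0.13), and both were 0.01 within slide 1.

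Cox7a2l encodes SCAF1, which joins complex III to complex IV in supercomplexes, and had the lowest log2 fold change of complex IV. It read 4.57, 4.52 and 4.57 in IL-4 samples, against 4.79, 5.26 and 5.05 in PBS samples. The groups did not overlap, and the log2 fold change was -0.48 ± 0.13 (SE, adjusted p = 0.0644, limma), with -0.23 within slide 1. Both other probes gave lower values as well, at -0.48 and -0.37. Cox6b1, a subunit on the intermembrane side, read -0.25, -0.41 and -0.28 in IL-4 samples, against -0.16, 0.12 and 0.18 in PBS samples. Its groups were separated too, at -0.36, and within slide 1 the difference was -0.15. Cox7a2, the widely expressed isoform of subunit 7A, read 2.98, 2.87 and 2.87 in IL-4 samples, against 3.06, 3.24 and 3.16 in PBS samples. It was also separated, at -0.24, and -0.15 within slide 1. Cox7b, a small membrane subunit, had -0.32 over all arrays and -0.27 within slide 1, the least changed by the slide of the separated genes of complex IV. Cox6a1 read 6.18, 6.19 and 6.22 in IL-4 samples, against 6.12, 6.33 and 6.05 in PBS samples. Cox8a read 4.72, 4.58 and 4.64 in IL-4 samples, against 4.62, 4.89 and 4.69 in PBS samples. Both are the widely expressed isoforms of their subunits, and both overlapped between groups. Their log2 fold changes were 0.03 for Cox6a1 and -0.09 for Cox8a, and within slide 1 0.07 and 0.03. Cox6c had a log2 fold change of -0.01, and -0.06 within slide 1. Cox7c had 0.10, and 0.04 within slide 1, but its 3 probes disagreed, at 0.10, 0.68 and -0.34.

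Cox4i2 encodes the isoform of subunit 4 known from lung and from cells short of oxygen, and had the largest difference of all 43 genes. It read 2.85, 3.14 and 2.89 in IL-4 samples, against 2.40, 1.57 and 1.00 in PBS samples. Every IL-4 array was above every PBS array, and the PBS arrays spread widely, with PBS replicate 1 the highest. The mean was 2.96 ± 0.16 in IL-4 samples and 1.66 ± 0.70 in PBS samples (SD, n = 3 each), which is 2.46-fold higher (log2 fold change 1.30 ± 0.31 SE), with an adjusted p of 0.0541 in limma. Within slide 1 it was 0.56 higher, while PBS replicate 1 exceeded the mean of PBS replicates 2 and 3 by 1.11. The gap between PBS arrays of different slides was thus larger than the difference between treatments on slide 1.

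The muscle and testis isoforms of complex IV did not share this pattern. Cox6a2, the heart and muscle isoform of subunit 6A, read -1.76, -1.86 and -1.71 in IL-4 samples, against -1.73, -1.41 and -1.43 in PBS samples. Cox7a1, the heart and muscle isoform of subunit 7A, read -1.38, -1.37 and -1.27 in IL-4 samples, against -1.15, -0.79 and -0.70 in PBS samples. Cox6a2 overlapped between groups (-0.25 over all arrays and -0.05 within slide 1), while Cox7a1 was lower on every IL-4 array (log2 fold change -0.46 ± 0.14 SE, adjusted p = 0.0695, limma), with -0.19 within slide 1. Cox8b, the heart and muscle isoform of subunit 8, read -4.43, -4.05 and -4.23 in IL-4 samples, against -4.25, -4.59 and -4.32 in PBS samples. Cox6b2, the testis isoform of subunit 6B, read -0.07, 0.29 and 0.15 in IL-4 samples, against 0.12, 0.86 and 0.51 in PBS samples. Both overlapped between groups, with log2 fold changes of 0.15 for Cox8b and -0.37 for Cox6b2 that were both 0.01 within slide 1. Cox8c, the testis isoform of subunit 8, read -4.63, -4.62 and -4.63 in IL-4 samples, against -4.67, -4.58 and -4.21 in PBS samples. The untested Cox7b2, the testis isoform of subunit 7B, read -6.06, -5.78 and -6.02 in IL-4 samples, against -5.63, -7.18 and -7.72 in PBS samples. Both overlapped between groups, and Cox8c had -0.14 over all arrays and 0.04 within slide 1. Markers of striated muscle summed on the linear scale to 0.597 to 0.715 in IL-4 samples and 0.643 to 0.768 in PBS samples, with 0 of 5 called. Markers of male germ cells summed to 1.41 to 1.63 in IL-4 samples and 1.02 to 1.22 in PBS samples, where Prm2, a protamine, rose by 1.09 (adjusted p = 0.0489, limma), with 0.51 within slide 1. All 5 muscle markers and all 5 germ cell markers read well above background on all 6 arrays. Between 87.9% and 98.0% of all probes did so on each array, so this alone does not show that such cells were present. The part of these markers in the isoform values was not tested.

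Each of 6 tissue isoforms was also set against its widely expressed partner within the array, which removes the scaling between arrays. The signal difference between 2 probes has no meaning by itself, and only its change between groups is read. Cox4i2 minus Cox4i1 was -0.97, -0.57 and -0.87 in IL-4 samples, against -1.39, -2.78 and -3.27 in PBS samples. Every IL-4 array was above every PBS array, with a change of 1.68 over all arrays and 0.59 within slide 1. The exact two-sided permutation test over samples gave p = 0.1 (0.3 after Benjamini-Hochberg adjustment over the 6 pairs), and 0.1 is the smallest p that 3 against 3 samples allow. The changes of the other pairs were -0.28 for Cox6a2 minus Cox6a1, -0.21 for Cox7a1 minus Cox7a2, 0.23 for Cox8b minus Cox8a, -0.02 for Cox6b2 minus Cox6b1 and -0.06 for Cox8c minus Cox8a. Within slide 1 they were -0.12, -0.04, -0.01, 0.16 and 0.01 in the same order. Their exact permutation p-values were 0.1, 0.2, 0.5, 0.9 and 0.9. The pairs were chosen after the values of their genes had been seen.

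**Figure D3:**
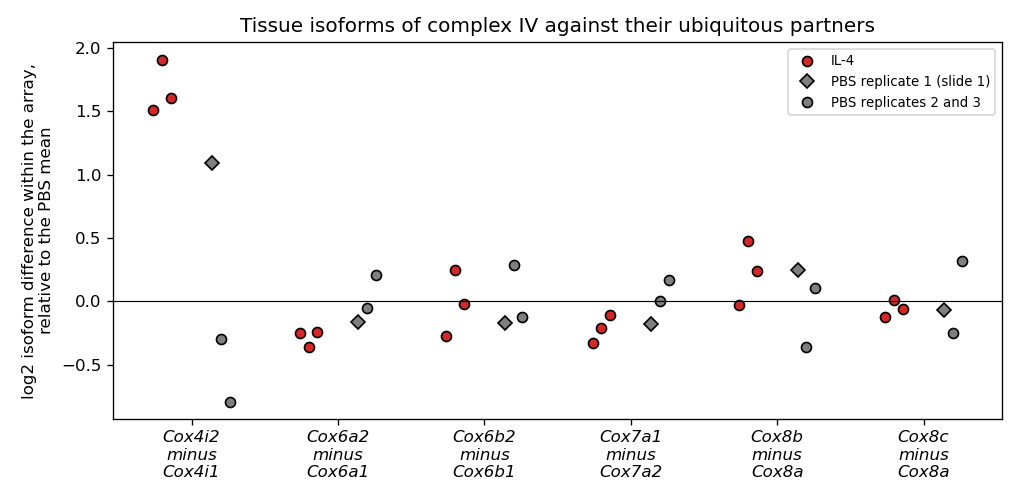
Within-array difference in log2 signal between each tissue isoform of complex IV and its widely expressed partner, drawn relative to the mean of the PBS arrays. Each point is an array, IL-4 left of PBS in each pair, with PBS replicate 1 as a diamond. For Cox4i2 minus Cox4i1 the IL-4 arrays lie above all PBS arrays, PBS replicate 1 is the nearest of these, and the change is 1.68.

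In ATP synthase, the F1 head and the small accessory subunits of Fo gave different counts. The 5 F1 subunits had a median log2 fold change of -0.01 over all arrays and 0.06 within slide 1. Of them, 2 were higher on every IL-4 array (40.0%, against 18.7% of all tested genes) and 1 was lower (20.0%, against 19.8%). The 2 higher genes were Atp5b and Atp5c1, and a second probe of Atp5c1 gave -0.26 over all arrays. The 5 accessory subunits of Fo had a median of -0.21 over all arrays and -0.14 within slide 1. Among these, 3 were lower on every IL-4 array (60.0%, against 19.8% of all tested genes) and 0 were higher (against 18.7%). The difference between these sets was not tested.

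Atp5b encodes the catalytic beta subunit. It read 6.44, 6.32 and 6.36 in IL-4 samples, against 6.11, 6.05 and 5.94 in PBS samples. All IL-4 arrays were above all PBS arrays, a 1.27-fold higher signal that did not pass the test (log2 fold change 0.34 ± 0.10 SE, adjusted p = 0.0696, limma), and the difference within slide 1 was 0.26. The size depended on the scaling, since quantile normalization gave a log2 fold change of 0.10 for Atp5b. Atp5c1, the gamma subunit that forms the turning central stalk, read 4.94, 4.72 and 4.74 in IL-4 samples, against 4.64, 4.41 and 4.39 in PBS samples. It was separated in the same direction (0.32 ± 0.12 SE, adjusted p = 0.106, limma) with 0.16 within slide 1, but its second probe gave -0.26. The mean of the Atp5c1 probes gave 0.03. Atp5d, the delta subunit of the central stalk, lay the other way, at -0.41 over all arrays and -0.23 within slide 1, with separated groups. The alpha subunit Atp5a1 had -0.01 (0.06 within slide 1) and the epsilon subunit Atp5e -0.21 (-0.03 within slide 1), and both overlapped between groups.

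Atp5j2 encodes subunit f, a small membrane subunit of Fo. It read 1.95, 1.93 and 1.98 in IL-4 samples, against 2.29, 2.59 and 2.64 in PBS samples. All IL-4 arrays were below all PBS arrays. The mean was 1.95 ± 0.02 in IL-4 samples and 2.51 ± 0.19 in PBS samples (SD, n = 3 each), a 1.47-fold lower signal at the edge of the threshold (log2 fold change -0.56 ± 0.12 SE, adjusted p = 0.0499, limma). Within slide 1 the difference was -0.34, with an adjusted p of 0.34 when limma had slide as a block. Its second probe gave -0.68 over all arrays and -0.39 within slide 1.

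Atp5k, subunit e, which helps ATP synthase to pair into dimers, read 3.81, 3.72 and 3.73 in IL-4 samples, against 4.08, 4.29 and 4.30 in PBS samples. The groups did not overlap, at -0.47 ± 0.11 (SE, adjusted p = 0.0517, limma) and -0.33 within slide 1, and the second probe also gave -0.47. Atp5mpl, a small proteolipid of Fo, was the third separated accessory gene, at -0.21 and -0.14 within slide 1. Atp5l (subunit g) had 0.03, and 0.06 within slide 1, with 5 probes between 0.03 and 0.28, and Atp5md (DAPIT) had -0.17, which was 0.03 within slide 1. The 3 genes of the proton-carrying c-ring differed among themselves. Atp5g1 had -0.35 over all arrays but 0.02 within slide 1, Atp5g2 had -0.17 and -0.12, and Atp5g3 had 0.10 and 0.03. In the peripheral stalk, which holds the head still against the rotor, the log2 fold changes of Atp5o, Atp5pb, Atp5h and Atp5j ranged from -0.33 to 0.08 over all arrays and from -0.13 to 0.08 within slide 1. Separated groups were seen in 0 of the 4, beside 19.8% of all tested genes separated lower and 18.7% higher.

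**Figure D4:**
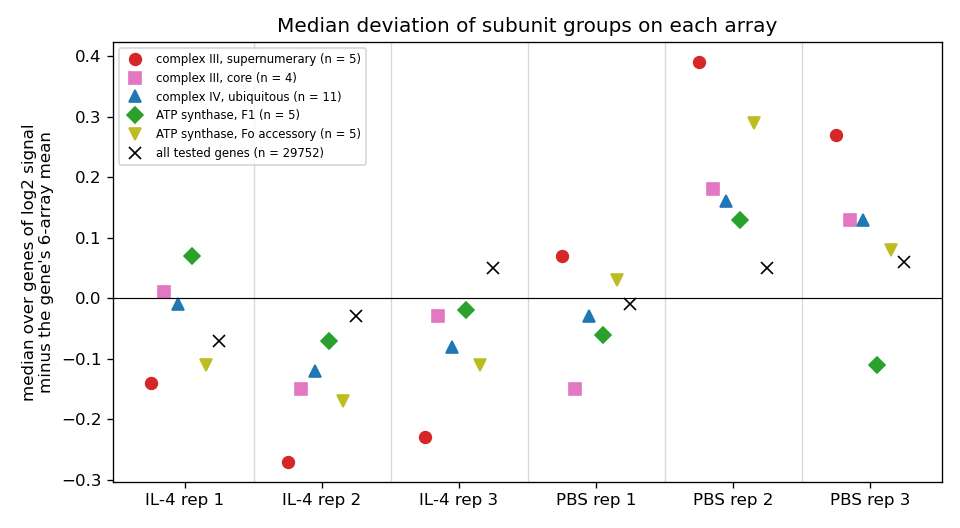
Median over the genes of each subunit group of the log2 signal minus the gene's 6-array mean, per array, with IL-4 arrays on the left. Crosses are the median over all 29752 tested genes. The supernumerary subunits of complex III lie at -0.14, -0.27 and -0.23 on the IL-4 arrays, against 0.07, 0.39 and 0.27 on the PBS arrays, while the F1 subunits lie at 0.07, -0.07 and -0.02, against -0.06, 0.13 and -0.11.

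Genes that build or serve these complexes gave 2 calls among the 57 tested (3.51%), close to the 3.35% of all tested genes called in either direction. Among assembly factors of complex III, 1 of 5 tested genes fell and 0 rose. At an unadjusted limma p under 0.05, 2 of the 5 were lower and 1 higher, against 17.5% and 16.6% of all tested genes. The gene that fell was Uqcc3, an early assembly factor. It read -0.92, -0.94 and -0.95 in IL-4 samples, against -0.49, 0.03 and -0.01 in PBS samples (log2 fold change -0.78 ± 0.15 SE, adjusted p = 0.042, limma), with -0.45 within slide 1 and an adjusted p of 0.23 with slide as a block. Bcs1l, which inserts the Rieske protein Uqcrfs1, was the highest of the list, at 0.90 over all arrays (adjusted p = 0.056, limma) and 0.37 within slide 1. Among 21 tested assembly and copper delivery genes of complex IV, 1 fell and 0 rose. At an unadjusted limma p under 0.05, 6 of the 21 were lower and 1 higher, against the same 17.5% and 16.6%. The gene that fell was Coa3, which acts in the translation and early assembly of the COX1 protein. It read 1.52, 1.57 and 1.58 in IL-4 samples, against 2.11, 2.42 and 2.55 in PBS samples (log2 fold change -0.80 ± 0.13 SE, adjusted p = 0.033, limma), with -0.55 within slide 1 and an adjusted p of 0.19 with slide as a block. The highest of that list was the copper chaperone Cox17, at 0.80 over all arrays and 0.31 within slide 1, with PBS replicate 2 missing from its fit.

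None of the 31 tested genes of the other lists was called, beside 2.54% of all tested genes called lower and 0.807% called higher. The counts at an unadjusted limma p under 0.05 in these lists stand beside 17.5% of all tested genes lower and 16.6% higher. For assembly factors and the inhibitor of ATP synthase the median log2 fold change was -0.31 over 5 genes and -0.09 within slide 1, with 1 lower and 0 higher at an unadjusted limma p under 0.05. Its lowest gene was Atpaf1, a chaperone of the F1 head, at -0.98 over all arrays and -0.90 within slide 1, where IL-4 replicate 1 read -7.37 and the other IL-4 arrays -5.35 and -5.43, against -5.16, -5.00 and -5.06 in PBS samples. Its highest was Atpaf2, also a chaperone of the F1 head, at 0.13 and 0.06 within slide 1. For complex II, which feeds electrons from succinate into the chain, the median was -0.05 over 7 genes and -0.02 within slide 1, from -0.58 for the assembly factor Sdhaf1 (-0.28 within slide 1) to 0.26 for the iron-sulfur subunit Sdhb (0.14 within slide 1), with 2 lower and 1 higher at an unadjusted p. For cytochrome c and the carriers of ADP, ATP and phosphate the median was 0.07 over 7 genes and 0.07 within slide 1, from -0.25 for the ADP and ATP carrier Slc25a4 (-0.16 within slide 1) to 0.33 for the outer membrane channel Vdac1 (0.33 within slide 1), with 1 lower and 1 higher. For 12 regulators of transcription of respiratory genes and of mitochondrial DNA the median was -0.19 over all arrays and -0.05 within slide 1, with 4 lower and 1 higher. The highest was Nrf1, which binds the NRF1 sequence searched in the promoters, at 1.12 over all arrays (adjusted p = 0.058, limma) and 0.44 within slide 1. The lowest was Gabpa, which binds the GABPA sequence, at -0.38 over all arrays and -0.30 within slide 1. The subunits encoded by mitochondrial DNA could not be matched to a probe and are not analysed here.

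Some markers of the cells themselves differed between the groups as well. Of the 11 microglial and macrophage markers measured, Aif1, Tyrobp and Lyz2 fell and 0 rose (-0.49, -0.54 and -0.55 within slide 1 in that order). These calls stand beside 2.54% of all tested genes called lower and 0.807% called higher. The other markers were not called. Their log2 fold changes ran from -0.53 for Spi1 to 0.02 for Itgam, with Adgre1 at -0.02. The summed linear signal of the 11 markers was 50.3 to 55.7 in IL-4 samples and 57.1 to 72.3 in PBS samples. Their part in the values of the subunit genes was not tested. Neuron markers summed to 2.04 to 2.42 in IL-4 samples and 1.61 to 1.87 in PBS samples. Oligodendrocyte markers summed to 3.14 to 3.60 in IL-4 samples and 1.71 to 3.08 in PBS samples. Fibroblast markers summed to 0.23 to 0.299 in IL-4 samples and 0.268 to 0.315 in PBS samples. Astrocyte markers summed to 9.56 to 17.8 in IL-4 samples and 10.5 to 14.7 in PBS samples, PBS replicate 3 left out because its Aqp4 value was missing. No marker of these cell types was called, and Gja1, Stmn2, Lum and Pdgfra were not well above background on all 6 arrays. Aqp4 did not meet that rule either, as it had no value on PBS replicate 3, but it read 3.17 to 4.11 on the other arrays.

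The calls for Uqcrb and Atp5j2 depended on single arrays and on settings. Both held in 9 of 19 alternative analyses, with adjusted p-values of 0.0014 to 0.39 for Uqcrb and 0.0016 to 0.43 for Atp5j2, while their log2 fold changes stayed between -0.75 and -0.41 and between -0.66 and -0.34. Without any 1 of the IL-4 arrays, or without PBS replicate 2 or 3, none of the 43 genes was called by limma. Of all tested genes, 0 to 3 were called in these fits. An unadjusted limma p under 0.05 was reached there by 12 to 14 of the 43, beside 6108 to 8034 of all tested genes. Without PBS replicate 1, where group and slide cannot be told apart, 19 of the 43 were called lower and 3 higher. That fit called 6849 lower and 5813 higher of all 29726 genes tested in it. Cox4i2, Uqcr10, Atp5k and Cox7a2l, not called above, were called in 8, 9, 8 and 7 of the 19 alternatives. With the replicate numbers as a block, Uqcr10 (adjusted p = 0.036, limma) and Cox4i2 (adjusted p = 0.036, limma) joined both called genes.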

How the data were processed

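Total RNA of 6 BV2 samples was labelled with Cy3 and hybridised to 6 arrays, per the labels' protocols. The deposited scanner files hold spot intensity on a linear scale. Per the file headers they came from Agilent Feature Extraction 11.0.1.1, whose processed signal is background subtracted within each array. The authors also deposited a value table whose values look like log2 signals, with a median of 6.92 in all columns and correlations of at least 0.999 with the log2 processed signal. How it was normalized is not stated in the files or labels, and it served only as an alternative. The design text calls the controls untreated while the sample labels say PBS, which is used here, and a mention of human blood in one label field was not used.

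Control spots and spots with an outlier flag (87 to 394 per array) were left out, copies of a probe were averaged, and log2 processed signal was set relative to each array's 75th percentile. No spot was saturated. Of 39429 probes, 27234 (69.1%) were named through their accession and the RefSeq table of GRCm38.p6. The file headers give an older build, so no probe coordinates are printed, and probe sequences were not used, so binding of pseudogene transcripts was not tested. The test took probes that all arrays of either group showed well above background, and the brightest probe stood for a gene. Of the 44 genes, 30 had 1 probe and 14 had several. The values of other probes come from a fit of all probes. The comparison of IL-4 minus PBS used limma 3.58.1 (lmFit and eBayes) in R 4.3.3. The steps were also run on simulated data with independent noise and no difference between slides. That run cannot show how the fit behaves with the slides of these arrays. The slide was read from the scan record in the file headers. The number of arrays limits the precision.

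Per-array values are given for called genes, for the largest rise and the 2 largest falls of each complex, for core subunits of complex III, main subunits of the other complexes and tissue isoforms. From the related lists, called genes and the largest fall and rise were named. The genes, lists and markers were chosen with earlier results of these data known. Other listed genes without a matched or tested probe were not analysed here. Alternatives changed scaling, background correction, source of values, filter, choice of probe, slide, replicate block, the trend option and single arrays. The scanner files hold median but not mean foreground signals, so normexp (offset 50) used the median. What was added after the data were seen was the alternatives for the supernumerary subunits of complex III, for the isoform pairs and for genes named outside that rule (among them Uqcrc2), and the motif search.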

Additional observations from a re-analysis of the deposited data

How the results depend on the processing

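The median log2 fold change of the 43 genes stayed negative in all 19 alternatives, from -0.27 to -0.16 apart from -0.02 with slide as a block and on slide 1 only. The median within slide 1 was -0.08 with quantile normalization, -0.10 with normexp and quantile normalization and -0.08 with the authors' value table. All 5 supernumerary subunits of complex III kept separated groups on slide 1 only, without single arrays, with the mean of a gene's probes and under every other scaling, background correction or source of values, except with normexp and the 75th percentile, with median scaling, or with a percentile taken over probes detected on every array, where 4 did. Their median was -0.35 with normexp and the 75th percentile, -0.37 with normexp and quantile normalization, -0.25 with slide as a block or slide 1 only, and -0.55 to -0.36 when single arrays were left out (lowest without PBS replicate 1, highest without PBS replicate 2).

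Counts of calls varied widely. Over all genes limma called 997. The count was 2636 with quantile normalization, 1733 with median scaling, 523 with the 75th percentile taken over probes detected on every array, 4092 with normexp and the 75th percentile (2025 higher and 2067 lower, against 240 higher and 757 lower), 3136 with normexp and quantile normalization, 2288 with the authors' value table, 15 with no filter, 3808 with the filter on all arrays, 605 with the mean of a gene's probes, 9 with slide as a block, 1 on slide 1 only, 4170 with trend, and 0 to 12662 without single arrays (12662 without PBS replicate 1, and 0 when IL-4 replicate 1 was left out, with 7328 genes at an unadjusted p under 0.05, or PBS replicate 2, with 6297). Of the 43 genes 2 were called lower. In the same order the count was 7, 4, 0, 10, 11, 6, 0, 7, 0, 0, 0 and 8, and 0 to 19 without single arrays. The count of genes called higher, 0 above, was 1 with quantile normalization, median scaling, both normexp settings, the filter on all arrays and the replicate block, 2 with trend and 0 to 3 without single arrays. The cause was not tested.

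Deviations of same-numbered samples from their group means had r = 0.08, -0.03 and 0.29 over genes for numbers 1, 2 and 3. Differently numbered samples had r from -0.19 to 0.07. With 3 arrays per group, these values cannot decide whether the numbers pair the samples. The replicate block gave 3770 calls over all genes and 3 of the 43 genes called lower.

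Log2 fold changes that changed sign were all uncalled. With quantile normalization, normexp with quantile normalization and the authors' value table, Uqcrfs1 was -0.10, -0.09 and -0.08, Cox6a1 -0.19, -0.18 and -0.19, Cox7c -0.10, -0.13 and -0.09, Atp5g3 -0.10, -0.11 and -0.09, and Atp5pb -0.09, -0.12 and -0.07. Atp5l was -0.13 with quantile normalization and -0.10 with the authors' value table. With slide as a block or slide 1 only, Cox5a, Cox5b, Cox6b2 and Atp5h were 0.01, Atp5g1 0.02, Uqcrc2, Cox8a and Atp5md 0.03, Cox8c 0.04 and Atp5a1 0.06. With the percentile over probes detected on every array, Cox6c was 0.04 and Atp5a1 0.03, and Atp5a1 was 0.01 with normexp and the 75th percentile. Without single arrays Cox5a ranged from -0.10 to 0.0024, Cox6a1 from -0.03 to 0.11, Cox6c from -0.08 to 0.04, Atp5a1 from -0.07 to 0.08 and Atp5l from -0.02 to 0.11. Over the 43 genes and 16 other named genes, 903 comparisons kept sign and side of the threshold, 96 passed it, 72 no longer did and 48 changed sign.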
